A study of Homo sapiens with 10 samples.

Results

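The genes described here are 41 human genes that act in mitosis and in the segregation of chromosomes, chosen by name from a count table of 58735 lines. They are the G2/M cyclins and CDK1, the entry kinases, the spindle checkpoint, the anaphase-promoting complex with securin and separase, kinetochore and chromosomal passenger proteins, mitotic kinesins, spindle and cytokinesis factors, condensin, and 2 chromosome proteins used as markers of cycling cells. Each of the 41 symbols had 1 line in the table, and all 41 passed the filter on low counts. The libraries were RNA-seq libraries of HCMECs, recorded as human endothelial cells from brain and as a cell line. A control siRNA (siCtrl, 5 libraries) or an siRNA against USP9X (siUSP9X, 5 libraries) was applied for 48 h. All 10 libraries, controls included, then had Wnt3a, a Wnt ligand, for 12 h, so no library shows the cells without it. USP9X is a deubiquitinase, an enzyme that removes ubiquitin from other proteins. The sources used here do not say whether the libraries are separate cultures, so p-values measure only how these libraries vary, which may be technical.

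Mitosis begins when CDK1 bound to cyclin A or cyclin B phosphorylates many proteins, which condenses chromosomes and builds the spindle. The spindle checkpoint holds back the anaphase-promoting complex until every kinetochore is attached. The complex, with CDC20, then marks securin and cyclin B for destruction, separase cuts cohesin, and the cell divides. The transcripts of many of these genes are made in late S, G2 and M phase and are low in resting cells, through the DREAM, MuvB, B-MYB and FOXM1 proteins. In an mRNA pool of unsynchronised cells their levels therefore move with the share of cells in G2 and mitosis as well as with the level in each such cell.

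Promoters of these genes are known for a short element called CHR, with the core TTTGAA or TTTAAA, close to the start of transcription, and for CCAAT boxes that bind NF-Y. RefSeq promoters (GRCh38.p14, 250 bases before to 50 bases after the start) were matched for 35 of the 41 genes. A window of 120 bases, 100 before to 20 after the start, is shown for 8 genes, to set the letters beside the 3 outcomes of the main edgeR test. CCNA2, CCNB2 and ESPL1 passed that test, CCNB1, CDC20 and KIF20A passed it only without 1 library, and PLK1 and MKI67 passed in neither. Capitals mark the CHR cores and the CCAAT box on either strand, so that ATTGG marks a CCAAT box on the strand not shown. They also mark CTTGAA, a variant that was searched only after the promoters had been read.
CCNA2 (chr4:121823864-121823983, minus strand): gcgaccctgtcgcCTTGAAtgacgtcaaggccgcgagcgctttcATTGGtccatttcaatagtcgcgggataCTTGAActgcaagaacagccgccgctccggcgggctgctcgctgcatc
CCNB2 (chr15:59105046-59105165, plus strand): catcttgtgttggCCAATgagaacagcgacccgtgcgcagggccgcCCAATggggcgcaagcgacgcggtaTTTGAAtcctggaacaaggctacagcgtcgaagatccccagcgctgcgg
ESPL1 (chr12:53268199-53268318, plus strand): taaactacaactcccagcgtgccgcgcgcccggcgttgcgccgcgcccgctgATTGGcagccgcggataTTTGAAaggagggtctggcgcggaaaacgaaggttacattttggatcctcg
CCNB1 (chr5:69167050-69167169, plus strand): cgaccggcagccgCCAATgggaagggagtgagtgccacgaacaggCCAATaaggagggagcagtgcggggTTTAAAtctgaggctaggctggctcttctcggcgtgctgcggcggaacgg
CDC20 (chr1:43358881-43359000, plus strand): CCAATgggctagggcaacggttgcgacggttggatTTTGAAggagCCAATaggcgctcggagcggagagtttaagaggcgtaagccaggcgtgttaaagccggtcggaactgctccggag
KIF20A (chr5:138179012-138179131, plus strand): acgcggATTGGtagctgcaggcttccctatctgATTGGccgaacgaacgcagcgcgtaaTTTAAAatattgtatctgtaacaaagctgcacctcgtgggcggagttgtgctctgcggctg
PLK1 (chr16:23678789-23678908, plus strand): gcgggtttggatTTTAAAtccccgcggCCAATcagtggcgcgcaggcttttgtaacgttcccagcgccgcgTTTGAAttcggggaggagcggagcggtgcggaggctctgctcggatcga
MKI67 (chr10:128126404-128126523, minus strand): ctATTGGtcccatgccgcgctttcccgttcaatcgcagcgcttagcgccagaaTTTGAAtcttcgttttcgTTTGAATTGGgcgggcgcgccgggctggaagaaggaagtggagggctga

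Over the full 300-base promoters, read on both strands, TTTGAA or TTTAAA was present in 32 of the 35 matched genes (91.4%). The same words were present in 27.9% of 27305 genes with a promoter entry and in 20.9% of 9912 tested genes. By outcome, they were present in 7 of the 10 matched genes that fell without siUSP9X replicate 2, and in 25 of the 25 that did not pass without it. TTTGAA alone was present in 26 of the 35 (74.3%, against 18.2% of all promoters) and CCAAT in 27 (77.1%, against 39.7%). Both kinds of word were present in 24 of the 35 (68.6%, against 11.2% of all promoters). A CHR word in the direction of transcription within the 100 bases before the start was present in 21 (60%, against 7.80%). The words can share bases, as in the run TTTGAATTGG of MKI67, where TTTGAA and ATTGG overlap by 1 base. CTTGAA was present in 3 of the 35 (8.57%, against 13.4% of all promoters), and it stands 28 bases before the start of CCNA2, close to where TTTGAA stands in CCNB2 (29 bases), PLK1 (29 bases) and ESPL1 (31 bases). Among 102 of 118 other mitosis genes that matched an entry, TTTGAA or TTTAAA was present in 52.0%. A match describes letters only, and no factor binding was measured.

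USP9X itself (chrX:41085635-41236579, plus strand) was measured at 416, 283, 330.3, 324 and 352 CPM (counts scaled to 1e+06 per library, with TMM factors) in siCtrl replicates 1 to 5 and at 36.5, 68.8, 27.6, 22.4 and 20.7 CPM in siUSP9X replicates 1 to 5. Every siUSP9X library was below every siCtrl library. The log2 fold change was -3.28 ± 0.32 (SE; edgeR quasi-likelihood test, Benjamini-Hochberg adjusted p = 0.000403), which is 9.68-fold lower, so the targeted transcript separated the libraries as their labels do.

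In units of 1e+06 counts, the libraries held 15.96 to 26.47. The library siUSP9X replicate 2 stood apart: 1.96% of its counts were from ribosomal protein genes, while that share was 4.10% to 4.77% in siUSP9X replicates 1, 3, 4 and 5 and 4.42% to 5.84% in siCtrl. It was also the highest of its group for 29 of the 41 genes and the lowest for 10. The log2 fold change of each mitosis gene named is therefore given with and without it. Of 12 endothelial markers, ESAM, ENG and EGFL7 had a mean of at least 1 CPM in siCtrl and ERG had no count in any library, while the rest, PECAM1, CDH5 and VWF among them, had means under 1 CPM. The summed level of the 12 was 236 to 300 CPM in siCtrl and 110 to 254 CPM in siUSP9X, where replicate 2 had the lowest sum. ESAM was at 67.2 CPM in that library and at 145 to 171 CPM in the other siUSP9X libraries. ENG was at 39.3 to 70.2 CPM over all siUSP9X libraries and at 79.6 to 92.6 CPM in siCtrl. Of 7 epithelial markers, KRT8 and KRT18 were detected at a mean of at least 1 CPM. EPCAM, CDH1 and KRT19 had means of 0.89, 0.22 and 0.047 CPM in siCtrl, and KRT5 and KRT14 had no count. The sums, almost wholly KRT8 and KRT18, were 3317 to 4179 CPM in siCtrl and 2031 to 2759 CPM in siUSP9X. Pericyte, fibroblast, neural and leukocyte markers summed to at most 7.70 CPM each in any library. The part of these shifts in the results below was not tested.

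Of the 41 genes, 3 fell with siUSP9X (CCNA2, CCNB2 and ESPL1), none rose, and 38 did not pass the test, at an adjusted p under 0.05 over 13934 tested genes in edgeR. Among all tested genes 3.22% fell and 4.09% rose. Without siUSP9X replicate 2, 12 of the 41 genes fell, the same 3 and CCNB1, BUB1, MAD2L1, CDC20, UBE2C, AURKB, BIRC5, KIF20A and NCAPH, while 11.5% of 14086 tested genes fell. Again none of the 41 rose, where 11.9% of all tested genes did. At an unadjusted p under 0.05, 12 of the 41 genes passed with all libraries, 11 lower and 1 (CENPE) higher, against 11.9% lower and 15.9% higher over all tested genes. Without siUSP9X replicate 2, 18 passed, all of them lower, against 17.5% lower and 18.2% higher over all tested genes. DESeq2 and limma-voom also called none of the 41 higher. The median log2 fold change of the 41 genes was -0.018, against 0.026 over all tested genes, and -0.14 against 0.0072 without siUSP9X replicate 2. With all libraries 21 of the 41 values were negative (51.2%), near the 47.6% of all tested genes, and without that library 26 of 41 (63.4%, against 49.1%). In bulk RNA, fewer cells in G2 and mitosis and less RNA of these genes per cell cannot be told apart.

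**Figure D1:**
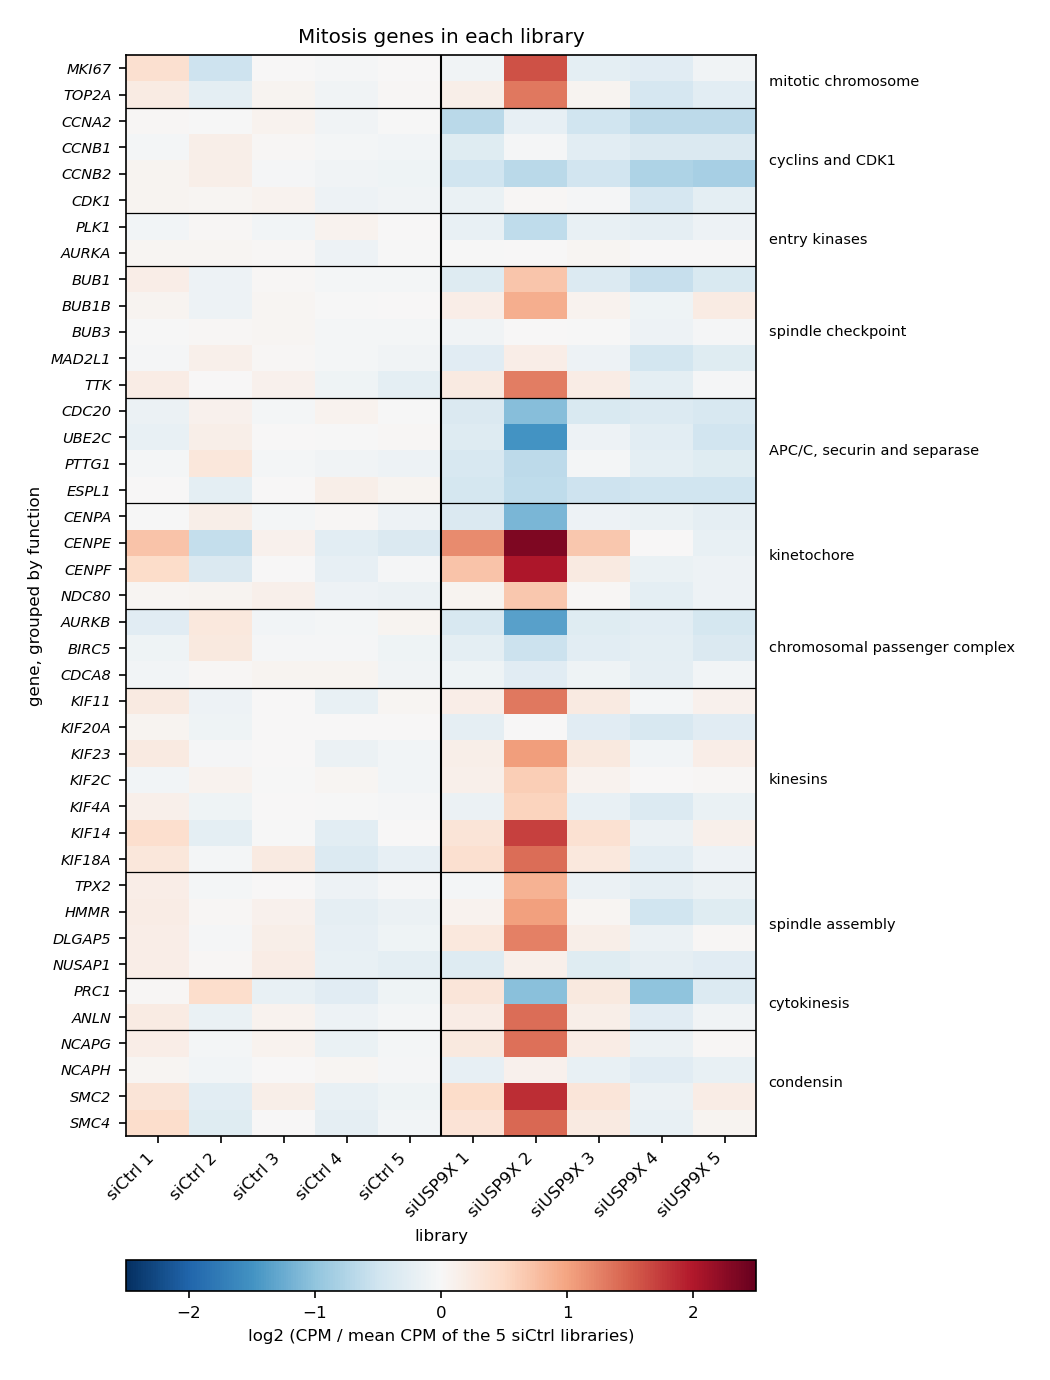
Each row is 1 of the 41 genes, grouped by function, and each column 1 library, with colour for log2 of its CPM over the mean CPM of the 5 siCtrl libraries. The column of siUSP9X replicate 2 holds the strongest colours in both directions, red for MKI67, CENPE, CENPF and SMC2 and blue for UBE2C and AURKB, while CCNA2, CCNB2 and ESPL1 are blue in all 5 siUSP9X columns.

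The siUSP9X libraries were all below the siCtrl libraries for 6 of the 41 genes (CCNA2, CCNB2, PLK1, CDC20, ESPL1 and BIRC5), and none of the 41 had all siUSP9X libraries above. Over all tested genes the shares were 6.85% below and 7.79% above. Without siUSP9X replicate 2, 12 genes were below in this sense (CCNA2, CCNB1, CCNB2, PLK1, BUB1, MAD2L1, CDC20, ESPL1, BIRC5, KIF20A, KIF4A and NCAPH) and none above, against 9.54% below and 10.4% above over all tested genes.

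**Figure D2:**
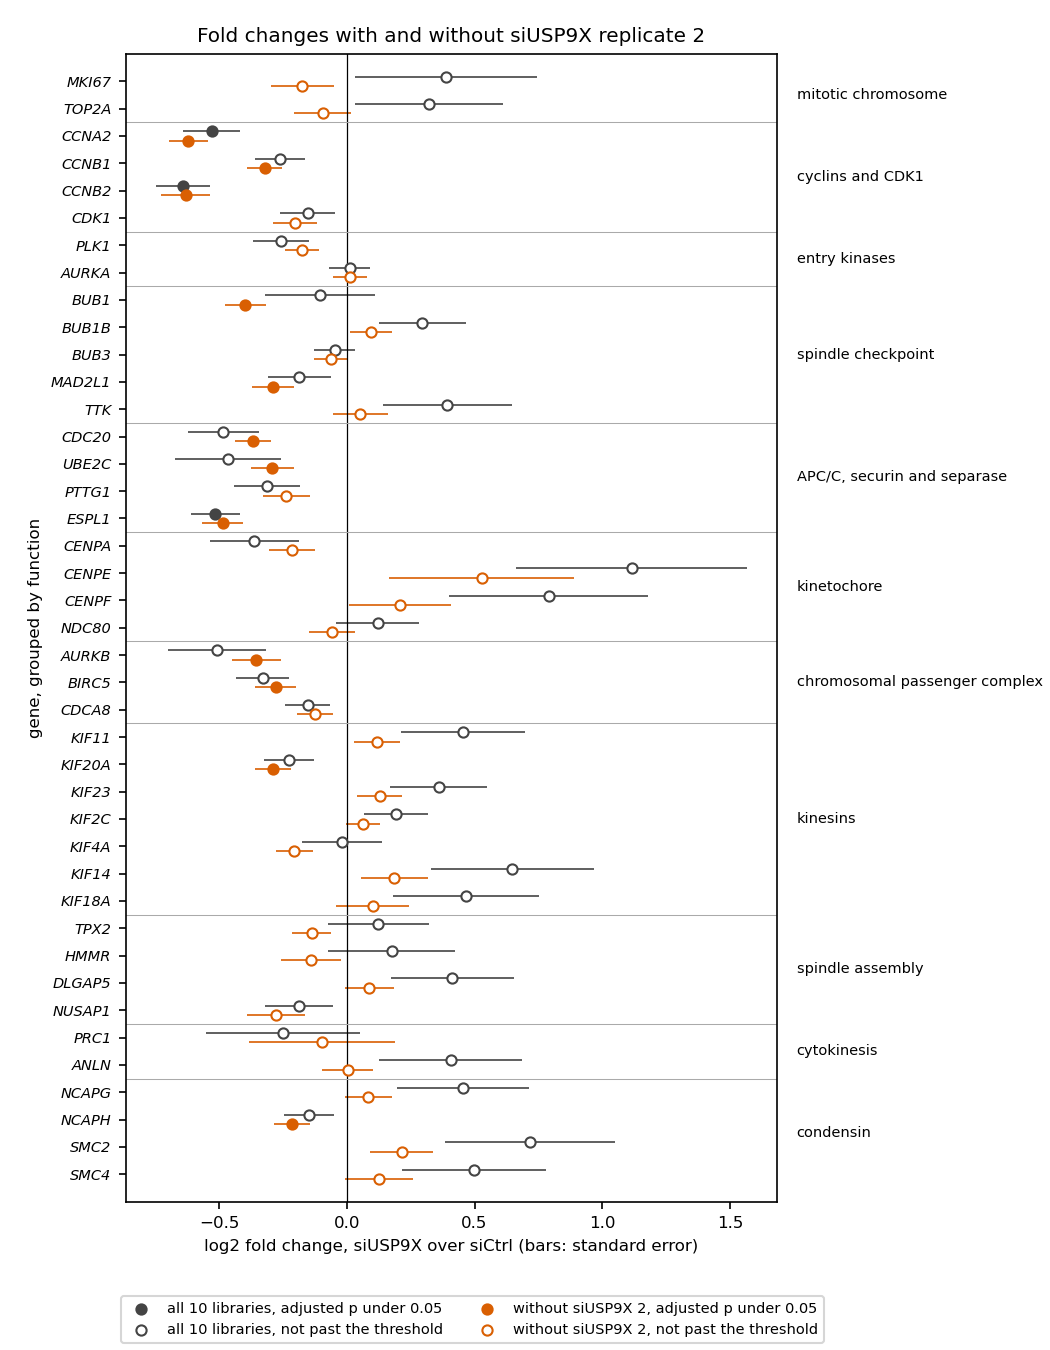
Log2 fold change of siUSP9X over siCtrl for the 41 genes, with bars for the standard error, with all 10 libraries (grey) and without siUSP9X replicate 2 (orange), filled where the adjusted p was under 0.05. With all libraries 3 grey points are filled, and without the library 12 orange points are filled, all of them left of 0.

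Among the cyclins and CDK1, CCNA2 and CCNB2 fell with all libraries, and all 4 genes of the group had negative values. CCNA2, cyclin A2, which partners CDK2 in S phase and CDK1 in G2 (chr4:121816444-121823933, minus strand), was measured at 102, 99.7, 106, 94.0 and 99.2 CPM in siCtrl replicates 1 to 5 and at 62.4, 86.6, 70.8, 63.2 and 64.0 CPM in siUSP9X replicates 1 to 5. The groups did not overlap, and siUSP9X replicate 2 was the nearest to the controls. The log2 fold change was -0.53 ± 0.11 (SE, edgeR adjusted p = 0.0176), and -0.62 ± 0.076 without siUSP9X replicate 2. The call was lost when siCtrl replicate 3 or siUSP9X replicate 5 was left out, where the edgeR adjusted p reached 0.0594.

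CCNB2, cyclin B2, a partner of CDK1 found at the Golgi (chr15:59105078-59125045, plus strand), had 76.9, 80.5, 71.9, 68.7 and 67.6 CPM in siCtrl and 51.7, 45.8, 52.8, 43.0 and 41.1 CPM in siUSP9X, in the same order of replicates. All siUSP9X values lay below all siCtrl values, and siUSP9X replicate 2 stood within the other 4. At -0.64 ± 0.11 (SE, edgeR adjusted p = 0.00601), its log2 fold change was the most negative of the 41, and it was -0.63 ± 0.096 without siUSP9X replicate 2. The call held in all 10 fits that left out 1 library each.

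CCNB1, cyclin B1, the main partner of CDK1 at mitotic entry (chr5:69167010-69178245, plus strand), had 412, 469, 433, 413 and 404 CPM in siCtrl and 345, 417, 355, 331 and 332 CPM in siUSP9X. Only siUSP9X replicate 2 reached into the range of the controls. The difference of -0.26 ± 0.097 on the log2 scale did not pass the test with all libraries (SE, edgeR adjusted p = 0.114), and that of -0.32 ± 0.069 without siUSP9X replicate 2 did (edgeR adjusted p = 0.00270). CDK1, the kinase itself (chr10:60778331-60794852, plus strand), had 159.9, 158, 164, 140.5 and 145 CPM in siCtrl and 137, 158, 151, 115 and 129 CPM in siUSP9X. The groups overlapped, and neither the log2 difference of -0.15 ± 0.11 (SE; edgeR adjusted p = 0.354) nor that of -0.20 ± 0.085 without siUSP9X replicate 2 (edgeR adjusted p = 0.0954) passed. Thus 2 of the 4 genes of the group fell with all libraries and 3 of 4 without siUSP9X replicate 2.

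**Figure D3:**
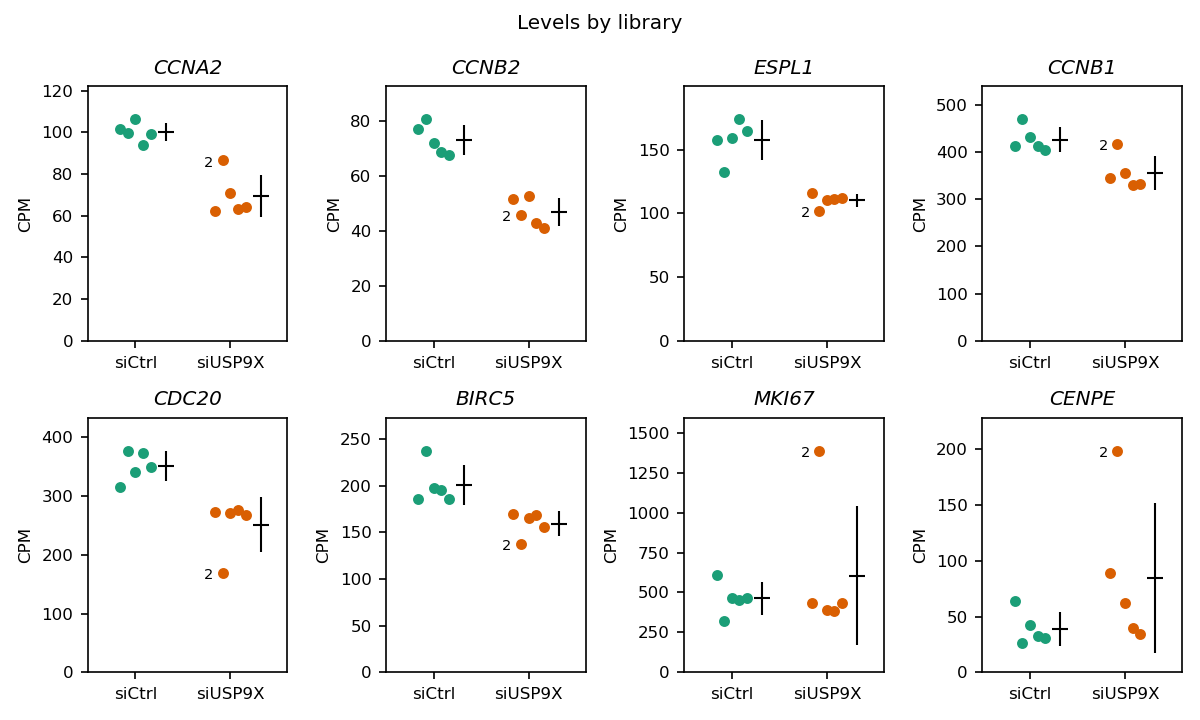
CPM in each library for 8 of the genes, with the mean and SD of each group (n = 5) beside the points and siUSP9X replicate 2 marked with its number. CCNA2, CCNB2, ESPL1, CDC20 and BIRC5 show no overlap between the groups, and in MKI67 and CENPE replicate 2 lies above every other library.

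Neither entry kinase passed the test. PLK1, polo-like kinase 1, which acts from mitotic entry to cytokinesis (chr16:23677656-23690367, plus strand), had 209.9, 226, 209.9, 233 and 222 CPM in siCtrl and 193, 142, 194, 189 and 203 CPM in siUSP9X. The groups did not overlap, but siUSP9X replicate 2 was far below the other 4, and the log2 difference of -0.26 ± 0.11 (SE; edgeR adjusted p = 0.151) did not pass, nor did that of -0.18 ± 0.067 without it (edgeR adjusted p = 0.0662). AURKA, Aurora A kinase of the centrosome and spindle, had a mean of 205 ± 10.2 CPM in siCtrl and 207 ± 2.71 CPM in siUSP9X (SD, n = 5 each). Its log2 fold change of 0.011 ± 0.081 (SE) was the smallest in size of the 41, and it was 0.012 ± 0.067 without siUSP9X replicate 2.

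In the anaphase group, the call was for separase. ESPL1 encodes separase, the protease that cuts cohesin at anaphase (chr12:53268299-53293643, plus strand), and it had 158, 132, 159, 174 and 165 CPM in siCtrl and 116, 102, 110.3, 111 and 112 CPM in siUSP9X. All siUSP9X libraries lay below all siCtrl libraries, in a narrow band. ESPL1 fell by this test, with -0.51 ± 0.097 on the log2 scale (SE, edgeR adjusted p = 0.0113), and -0.49 ± 0.081 without siUSP9X replicate 2, and the call held in all 10 fits that left out 1 library each.

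CDC20, the activator of the anaphase-promoting complex and target of the spindle checkpoint (chr1:43358955-43363203, plus strand), had 316, 377, 340.1, 374 and 349.8 CPM in siCtrl and 272, 169, 271, 277 and 267 CPM in siUSP9X. The groups did not overlap, with siUSP9X replicate 2 lowest by far. Its log2 fold change of -0.48 ± 0.14 missed the threshold with all libraries (SE, edgeR adjusted p = 0.0561) and passed without siUSP9X replicate 2 at -0.37 ± 0.070 (edgeR adjusted p = 0.00107). UBE2C, the ubiquitin-conjugating enzyme of the complex, had a mean of 199 ± 16.3 CPM in siCtrl and 144 ± 43.5 CPM in siUSP9X (SD, n = 5 each), with 71.0 CPM in siUSP9X replicate 2. With all libraries its log2 fold change was -0.47 ± 0.21 (SE, edgeR adjusted p = 0.172), and it passed only without that library, at -0.29 ± 0.084 on the log2 scale (SE, edgeR adjusted p = 0.0185). PTTG1, securin, the inhibitor of separase, was at 148 ± 17.7 and 119 ± 18.3 CPM (SD, n = 5 each), and its log2 difference of -0.31 ± 0.13 (SE; edgeR adjusted p = 0.144) did not pass, nor did that of -0.24 ± 0.093 without siUSP9X replicate 2. All 4 genes of this group had negative values with and without siUSP9X replicate 2, which was the lowest library of its group for all 4.

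The spindle checkpoint genes gave no call with all libraries and 2 of 5 without siUSP9X replicate 2. BUB1, a checkpoint kinase of the kinetochore (chr2:110637698-110678114, minus strand), had 229.9, 189, 211, 199 and 199 CPM in siCtrl and 165, 331, 162, 138 and 158 CPM in siUSP9X. The other 4 siUSP9X libraries were below every control, and siUSP9X replicate 2 was above every control. Its fold change on the log2 scale was -0.11 ± 0.22 with all libraries (SE, edgeR adjusted p = 0.760) and -0.40 ± 0.080 without it (edgeR adjusted p = 0.00165).

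MAD2L1, which encodes MAD2, the checkpoint protein that holds CDC20, was at 99.6 to 116 CPM in siCtrl and at 76.8 to 97.4 CPM in siUSP9X apart from replicate 2, which was at 119 CPM. At -0.19 ± 0.12 on the log2 scale it did not pass with all libraries (SE, edgeR adjusted p = 0.324), and it passed without that library, at -0.29 ± 0.082 on the log2 scale (SE, edgeR adjusted p = 0.0168). TTK, the MPS1 kinase that starts checkpoint signalling, had the highest log2 fold change of the group, 0.39 ± 0.25 (SE, edgeR adjusted p = 0.312), and 0.053 ± 0.11 without siUSP9X replicate 2, and it passed in neither. BUB1B (log2 fold change 0.30 with and 0.095 without that library) and BUB3 (-0.046 and -0.061), the other checkpoint proteins, did not pass either way.

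Among the kinetochore genes the widest spread was in CENPE. It encodes a kinesin of the kinetochore that moves chromosomes to the spindle equator (chr4:103105806-103198409, minus strand), and it had 64.4, 25.9, 42.4, 32.5 and 30.6 CPM in siCtrl and 89.1, 199, 62.4, 39.5 and 34.5 CPM in siUSP9X. The groups overlapped, and within each group the highest library was more than 2 times the lowest. The log2 difference of 1.12 ± 0.45 (SE; edgeR adjusted p = 0.141) was the highest of the 41 and did not pass, and without siUSP9X replicate 2 it was 0.53 ± 0.36 (edgeR adjusted p = 0.340). CENPF, another large protein of the outer kinetochore, had log2 fold changes of 0.79 ± 0.39 with and 0.21 ± 0.20 without that library, and NDC80, which binds microtubule ends, of 0.12 ± 0.16 and -0.056 ± 0.090. CENPA, the histone H3 variant that marks centromeres, was the lowest of the group at -0.36 ± 0.17 (SE, edgeR adjusted p = 0.195), and at -0.22 ± 0.090 without that library. None of these 4 passed with or without siUSP9X replicate 2.

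The chromosomal passenger complex, in which BIRC5 and CDCA8 place the kinase AURKB on centromeres and the midzone, had log2 fold changes below 0 for all 3 genes. AURKB (chr17:8204733-8210600, minus strand) had 92.4, 136, 107, 109 and 118 CPM in siCtrl and 85.0, 43.8, 91.0, 93.2 and 82.4 CPM in siUSP9X. The groups overlapped at 1 siUSP9X and 1 siCtrl library, and siUSP9X replicate 2 was the lowest by far. Its log2 fold change of -0.51 ± 0.19 did not pass with all libraries (SE, edgeR adjusted p = 0.117) and that of -0.35 ± 0.095 did without siUSP9X replicate 2 (edgeR adjusted p = 0.0119).

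BIRC5 encodes survivin, a protein from which USP9X is known to remove ubiquitin (chr17:78214186-78225636, plus strand); only its transcript was measured here. It had 186, 238, 197, 196 and 186 CPM in siCtrl and 169.6, 137, 166, 169 and 156 CPM in siUSP9X. Every siUSP9X library was below every control, and the log2 difference of -0.33 ± 0.10 (SE; edgeR adjusted p = 0.0758) did not pass with all libraries, while that of -0.28 ± 0.080 without siUSP9X replicate 2 did (edgeR adjusted p = 0.0178). CDCA8, borealin, was at -0.15 ± 0.087 (SE, edgeR adjusted p = 0.258) and at -0.12 ± 0.071 without siUSP9X replicate 2, and did not pass in either.

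The log2 fold changes of the 2 chromosome proteins were above 0 with all libraries and below 0 without siUSP9X replicate 2. MKI67, the Ki-67 antigen that coats mitotic chromosomes and marks cycling cells (chr10:128096659-128126385, minus strand), had 611, 323, 466, 451 and 463 CPM in siCtrl and 433, 1386, 390.3, 382 and 436 CPM in siUSP9X. The other 4 siUSP9X libraries lay within the siCtrl range and siUSP9X replicate 2 was more than 2 times the highest control. The log2 fold change was 0.39 ± 0.36 with all libraries (SE, edgeR adjusted p = 0.476) and -0.17 ± 0.12 without it (edgeR adjusted p = 0.340).

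TOP2A, topoisomerase II alpha, which untangles sister chromatids (chr17:40388516-40417950, minus strand), had 795, 582, 727, 647 and 709 CPM in siCtrl and 767, 1737, 728, 516 and 579 CPM in siUSP9X. Here too siUSP9X replicate 2 stood above every other library. Its value on the log2 scale was 0.32 ± 0.29 (SE, edgeR adjusted p = 0.467) and -0.094 ± 0.11 without that library (edgeR adjusted p = 0.580). Neither marker of cycling cells thus passed in these fits, with or without siUSP9X replicate 2. MKI67 was called lower only in a fit given below, with an offset for transcript length and without that library.

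Of the 7 mitotic kinesins, none passed with all libraries and KIF20A fell without siUSP9X replicate 2. KIF11, the kinesin that pushes spindle poles apart (chr10:92593286-92655395, plus strand), had 123, 96.7, 107, 93.8 and 110.3 CPM in siCtrl and 119, 267, 124, 103 and 115 CPM in siUSP9X. Apart from siUSP9X replicate 2 the groups overlapped, and on the log2 scale the change was 0.45 ± 0.24 (SE, edgeR adjusted p = 0.233) with it and 0.12 ± 0.090 without it. KIF20A, a kinesin of the midzone, was at 192 to 216 CPM in siCtrl and 156 to 178 CPM in siUSP9X without replicate 2, with 208 CPM in that library. Its log2 fold change was -0.23 ± 0.098 with all libraries (SE, edgeR adjusted p = 0.157) and -0.29 ± 0.070 without (edgeR adjusted p = 0.00620). KIF14, a cytokinesis kinesin, had the highest log2 fold change of the group, 0.65 ± 0.32 (SE, edgeR adjusted p = 0.206), and 0.19 ± 0.13 without siUSP9X replicate 2. KIF23, KIF2C and KIF18A, with log2 fold changes of 0.36, 0.19 and 0.47, and KIF4A, at -0.018, did not pass. Without that library the first 3 were at 0.13, 0.063 and 0.10 and did not pass. KIF4A was then at -0.20 ± 0.073 with no overlap between the groups and did not pass (edgeR adjusted p = 0.0517).

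Spindle assembly and cytokinesis genes gave no call with or without siUSP9X replicate 2. TPX2, which activates Aurora A and nucleates microtubules (chr20:31739271-31801805, plus strand), had 673, 580.4, 599, 548 and 585 CPM in siCtrl and 578, 1084, 542, 511 and 538 CPM in siUSP9X. Replicate 2 again stood above all other libraries, and the log2 fold change was 0.12 ± 0.20 (SE, edgeR adjusted p = 0.692) with it and -0.14 ± 0.075 without it. DLGAP5 had the highest log2 fold change of the spindle group, 0.41 ± 0.24 (SE), and NUSAP1 the lowest, -0.19 ± 0.13 (SE), with HMMR at 0.18. These values moved with siUSP9X replicate 2: without it DLGAP5 was at 0.089, NUSAP1 at -0.28 and HMMR, with the opposite sign, at -0.14. ANLN, anillin, which scaffolds the contractile ring (chr7:36389806-36453791, plus strand), had 344, 263, 316, 273 and 286 CPM in siCtrl and 335, 777, 328, 242 and 280.4 CPM in siUSP9X. Its log2 fold change was 0.41 ± 0.28 (SE, edgeR adjusted p = 0.342) and 0.0033 ± 0.10 without replicate 2. PRC1, which bundles midzone microtubules, was counted at only 1.48 ± 0.311 CPM in siCtrl and 1.24 ± 0.533 CPM in siUSP9X (SD, n = 5 each), with log2 fold changes of -0.25 ± 0.30 with and -0.097 ± 0.29 without replicate 2 (SE). In GENCODE 29 annotation 58.4% of the exon bases of PRC1 and 62.2% of those of NUSAP1 overlap another gene, so how reads there were assigned is uncertain. For NCAPG (33.1%) and SMC4 (25.6%) the overlapping genes are all on the opposite strand. The library kit was stranded, and whether the counting used the strand was not tested.

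Condensin, the ring complex that compacts mitotic chromosomes, had 1 gene lower without siUSP9X replicate 2 and none with all libraries. SMC4, a core ATPase subunit (chr3:160399274-160434962, plus strand), had 171, 102, 127, 108 and 120.2 CPM in siCtrl and 159, 339, 147, 109.9 and 131 CPM in siUSP9X. The groups overlapped apart from siUSP9X replicate 2, with log2 fold changes of 0.50 ± 0.28 (SE, edgeR adjusted p = 0.260) and 0.13 ± 0.13 without it. SMC2, its partner ATPase, had 0.72 ± 0.33 (SE, edgeR adjusted p = 0.186), the highest of the group, and 0.22 ± 0.12 without that library, and NCAPG of condensin I had 0.45 ± 0.26 and 0.085 ± 0.092. NCAPH, the kleisin subunit of condensin I, was at -0.15 ± 0.097 with all libraries (SE, edgeR adjusted p = 0.323) and fell without siUSP9X replicate 2 at -0.22 ± 0.070 (edgeR adjusted p = 0.0340).

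Within siUSP9X replicate 2, how far a gene stood from the rest of its group went with the length of its transcript. For the 41 genes, with transcripts of 850 to 12678 bases in GENCODE 29, the ratio of that library to the mean of the other 4 siUSP9X libraries had a Spearman correlation of 0.76 with length, a description across genes of 1 library and not a test. The 10 shortest transcripts (850 to 2172 bases) had a median log2 ratio of -0.23, with UBE2C (850 bases) at -1.20, and the 10 longest (5468 to 12678 bases) a median of 1.48, with CENPE (8612 bases) at 1.82. ESPL1 (6623 bases), at -0.14, and BUB3 (7828 bases) were long genes with little difference. Other libraries showed a relation with length too, in either direction, for the difference of each gene from its group's median. The correlation was 0.67 in siCtrl replicate 1, -0.75 in siCtrl replicate 2, -0.42 in siUSP9X replicate 3 and -0.64 in siUSP9X replicate 4. In the remaining libraries it ran from -0.21 to 0.37.

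**Figure D4:**
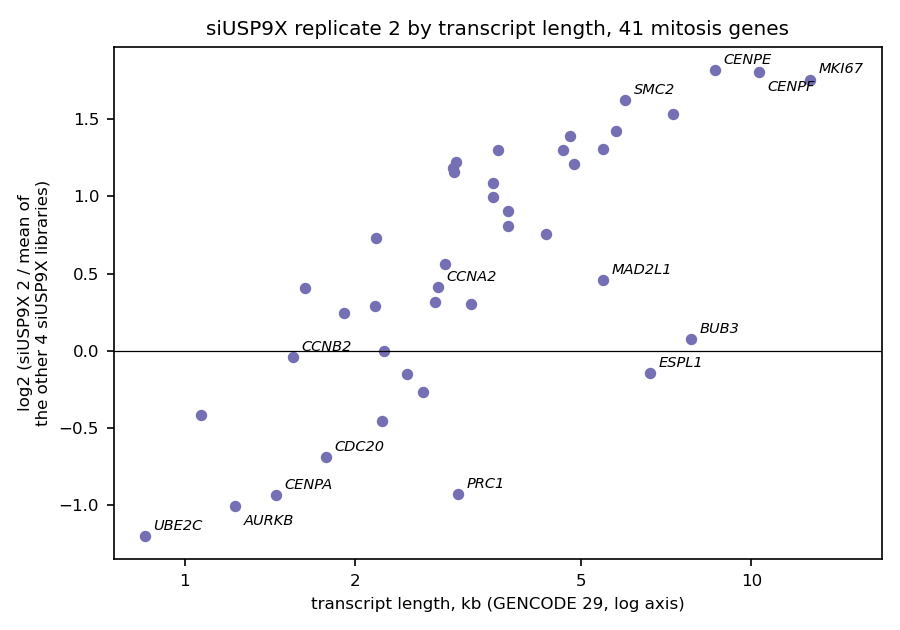
Each point is 1 of the 41 genes, with transcript length in kb on a log axis against log2 of its CPM in siUSP9X replicate 2 over the mean of the other 4 siUSP9X libraries. Points run from UBE2C and AURKB at lower left to CENPE, CENPF and MKI67 at upper right, with ESPL1, BUB3 and PRC1 below the run.

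The log2 fold change of siUSP9X over siCtrl correlated with length across the 41 genes at 0.69 with all libraries and at 0.56 without siUSP9X replicate 2. An added fit, chosen after these values were seen, took out each library's trend with length over all genes, and the correlation was then 0.35. With that length offset, 6 of the 41 genes fell and none rose: CCNA2 (-0.48, edgeR adjusted p = 0.0233), ESPL1 (-0.70, edgeR adjusted p = 0.00755), MAD2L1 (-0.36), CDC20 (-0.35), AURKB (-0.32) and BIRC5 (-0.27). Over all tested genes 6.56% fell and 6.70% rose in that fit. The call for CCNB2, a short transcript of 1556 bases, was lost there (-0.44, edgeR adjusted p = 0.0527). MKI67, the longest, was at -0.16 and did not pass. With the offset and without siUSP9X replicate 2, 14 genes fell and none rose, against 13.7% and 12.5% of all tested genes. They were the 12 genes named above, MKI67 (-0.35, edgeR adjusted p = 0.000895) and KIF4A (-0.25). CCNA2 and ESPL1 were thus called lower in all 4 fits, and CCNB2 in 3 of the 4. Why length goes with the level in single libraries was not tested.

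Levels of different genes can be compared only per length of transcript. In siCtrl, UBE2C had the highest level per kb of transcript at 235 ± 19.2 CPM per kb (SD, n = 5), followed by CDC20 at 198 ± 14.2, CCNB1 at 197 ± 12.1, TPX2 at 171 ± 13.2, PTTG1 at 138 ± 16.6 and TOP2A at 120.2 ± 14.1 CPM per kb. CDC20 and CCNB1 differed by less than either SD. The lowest were PRC1, at 0.488 ± 0.102 CPM per kb, then CENPE at 4.55 ± 1.78 and NUSAP1 at 9.84 ± 1.33 CPM per kb. The levels and ranks of PRC1 and NUSAP1 are uncertain, because most of their exon bases overlap another gene, as given above. The genes called lower with all libraries ranked 17 (CCNB2, 47.0 ± 3.54 CPM per kb), 22 (CCNA2, 35.8 ± 1.58 CPM per kb) and 30 (ESPL1, 23.8 ± 2.34 CPM per kb) of the 41.

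Beyond the 41 genes, 118 other genes of mitosis were tested in 9 function groups, of which 8 fell (6.78%) and 2 rose (1.69%) with all libraries, against 3.22% and 4.09% of all tested genes. Without siUSP9X replicate 2, 26 fell (22.0%) and 10 rose (8.47%), against 11.5% and 11.9% of all tested genes. Their median log2 fold change was -0.0033 with all libraries and -0.091 without that library. FOXM1, the transcription factor of G2/M genes, was at 149, 130.0, 157, 165 and 162 CPM in siCtrl and 96.1, 96.2, 85.2, 84.1 and 90.8 CPM in siUSP9X, with no overlap. It fell, at -0.75 ± 0.098 on the log2 scale (SE, edgeR adjusted p = 0.00140), and none of the 6 other regulators of its group, among them B-MYB and MuvB genes, passed with all libraries.

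Among kinetochore partners, ZWINT, which links the outer kinetochore to the checkpoint, fell from 152 ± 11.8 CPM in siCtrl to 78.6 ± 8.64 CPM in siUSP9X (SD, n = 5 each). On the log2 scale this was -0.95 ± 0.11 (SE, edgeR adjusted p = 0.000564). CENPH, of the inner kinetochore, fell at -0.59 ± 0.12 (SE), while the other 27 of that group did not pass. ANAPC13, a subunit of the anaphase-promoting complex, fell at -0.84 ± 0.12 (SE), 1 of 17 genes of the complex and its regulators. KIF18B (-0.84 ± 0.17), a kinesin that shortens astral microtubules, and NDE1 (-0.36 ± 0.090), a dynein regulator, fell among 20 spindle and centrosome genes, and TRIP13 (-0.38 ± 0.098), which takes MAD2 out of checkpoint complexes, among 8 checkpoint and passenger partners. In mitotic entry, GTSE1 fell at -0.44 ± 0.10 (SE) and WEE1, the kinase that holds CDK1 inactive, rose from 57.1 ± 5.14 to 81.6 ± 8.11 CPM (SD, n = 5 each), at 0.52 ± 0.11 (SE, edgeR adjusted p = 0.0166). ESCO1, a cohesin acetyltransferase, was the other gene that rose, at 1.06 ± 0.28 (SE, edgeR adjusted p = 0.0430).

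The calls for FOXM1, ZWINT and ANAPC13 held in all 10 fits that left out 1 library each, those for CENPH in 9, KIF18B in 8, WEE1 in 7, GTSE1 in 4, ESCO1 in 2, and TRIP13 and NDE1 in 1. Without siUSP9X replicate 2 all of these passed, with log2 fold changes of -0.77 for FOXM1, -0.89 for ZWINT, -0.87 for ANAPC13, -0.55 for CENPH, -0.69 for KIF18B, 0.50 for WEE1, -0.38 for GTSE1, -0.43 for TRIP13 and -0.32 for NDE1. With the length offset and all libraries, CENPH (-0.38, edgeR adjusted p = 0.0802) and TRIP13 (-0.32, edgeR adjusted p = 0.0664) lost their calls. Those for FOXM1, ZWINT, ANAPC13, WEE1, GTSE1 and ESCO1 held in that fit. The higher value of ESCO1 rests in part on siUSP9X replicate 2, which was at 156 CPM while the remaining siUSP9X libraries were at 50.8 to 71.6 CPM, and without it the log2 fold change was 0.68 ± 0.12 (edgeR adjusted p = 0.000617). Of the 15 cohesin genes, 14 had positive values with all libraries, where 52.4% of all tested genes did. Without siUSP9X replicate 2 this was 9 of 15, where 50.9% of all tested genes did, and their median log2 fold change went from 0.38 to 0.14. Without that library NIPBL (0.50), STAG2 (0.38), PDS5B (0.37) and ESCO1 rose and CDCA5 (-0.21), sororin, fell. With all libraries the values were 1.02, 0.91, 0.97 and, for CDCA5, -0.35, and these 4 did not pass. With the length offset and without siUSP9X replicate 2, NIPBL (0.35), STAG2 (0.30), PDS5B (0.26) and ESCO1 (0.64) rose. In that fit PDS5A (-0.33), SMC1A (-0.18) and CDCA5 (-0.19) fell, and the remaining cohesin genes did not pass.

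**Figure D5:**
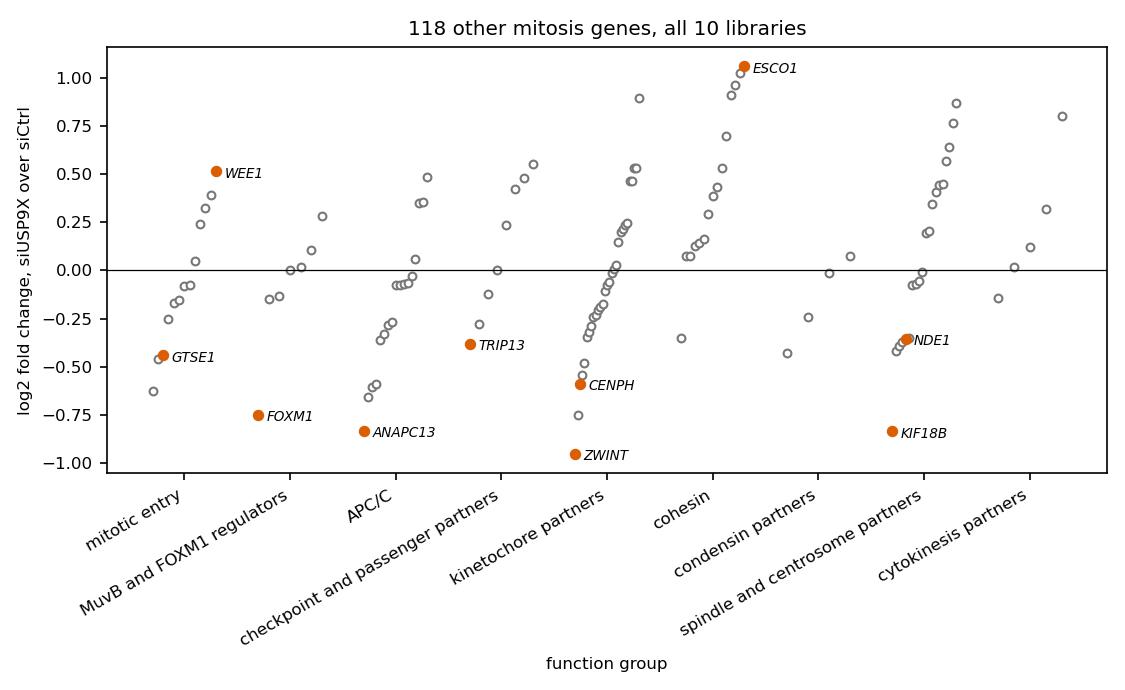
Log2 fold change of siUSP9X over siCtrl with all 10 libraries for the 118 other mitosis genes, by function group, with the 10 that passed the test filled and named. FOXM1, ANAPC13, KIF18B and ZWINT are the lowest of their groups, and ESCO1 and WEE1 the highest of theirs.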

How the data were processed

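The deposited table holds whole-number counts per gene symbol for 10 libraries, not normalized. Per the labels' protocols, TRIzol RNA went into a stranded mRNA library kit. RSEM, DESeq2 and the build hg38 are named in the submitters' processing notes without version, role or order; the aligner and annotation are not given in the sources used here. Where the whole numbers are rounded RSEM estimates, reads shared between similar or overlapping genes were divided before deposit.

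Groups and replicate numbers came from the sample titles. Counts were fitted with edgeR 4.0.16 (R 4.3.3): TMM factors, filterByExpr with a minimum count of 10, a robust quasi-likelihood test on all 10 libraries, Benjamini-Hochberg adjustment over 13934 genes and a threshold of 0.05. CPM values use library totals scaled by TMM factors, and a standard error is the size of the log2 fold change over the square root of F. Alternatives were DESeq2 1.42.0, limma-voom (limma 3.58.1), other scalings, no filter, the replicate number as a block, each library left out and, added after the data were seen, an offset for transcript length (lowess span 0.3) with and without siUSP9X replicate 2. The lowest chi-square per degree of freedom between replicates was 5.27, so none was counted as a repeat of another.

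On simulated counts for the real genes (13776 run), edgeR called 23 of 67 genes changed by 1.5-fold, 59 of 67 by 2-fold and 66 of 66 by 4-fold, and 6 of 13734 unchanged genes. The simulated counts held no library that stands apart and no trend with transcript length, so these shares need not hold for the real libraries. Coordinates, transcript lengths (the longest of the principal protein-coding transcripts) and overlaps are from GENCODE release 29, and promoters from RefSeq (GRCh38.p14), 1-based. The 41 genes, the lists of other mitosis genes and of cell markers, and the tests were chosen with earlier results of these data known. Named genes are all that passed the threshold, a fixed set of 14, the highest and lowest of each function group, and up to 4 other mitosis genes per group.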

Additional observations from a re-analysis of the deposited data

Results flagged for a closer look

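A library was taken as far from the rest of its group of 5 where its gap to the nearest other library, over the range of the group, passed Dixon's critical value of 0.71. This was met in 30 of 102 tests, 1 per gene and group, where chance gives about 1 in 20. The tests share libraries, and 27 of the 30 were of siUSP9X replicate 2, 24 high and 3 low. In that library the mitochondrial ribosomal RNA MT-RNR2 took 1.40% of counts and ribosomal protein genes 1.96%, and the part of this in the values below was not tested.

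Among chromosome proteins and cyclins it was high for MKI67 at 1386 CPM (others 382 to 436), TOP2A at 1737 CPM (others 516 to 767) and CCNB1 at 417 CPM (others 331 to 355). Of the spindle checkpoint genes it was high for BUB1 at 331 CPM (others 138 to 165), BUB1B at 159 CPM (others 79.1 to 98.5) and TTK at 176 CPM (others 61.1 to 85.1). In the kinetochore group it was high for CENPF at 1036 CPM (others 229 to 421) and NDC80 at 104 CPM (others 55.4 to 68.9). Of the kinesins it was high for KIF11 at 267 CPM (others 103 to 124), KIF23 at 259 CPM (others 120.0 to 150.4), KIF2C at 345 CPM (others 226 to 244), KIF4A at 294 CPM (others 158 to 181), KIF14 at 251 CPM (others 68.5 to 99.0) and KIF18A at 121 CPM (others 38.6 to 61.3). Spindle and cytokinesis genes for which it was high were TPX2 at 1084 CPM (others 511 to 578), HMMR at 177 CPM (others 61.5 to 92.9), DLGAP5 at 321 CPM (others 121 to 161), NUSAP1 at 17.5 CPM (others 12.8 to 13.7) and ANLN at 777 CPM (others 242 to 335). All 4 condensin genes were high in it, with NCAPG at 313 CPM (others 108 to 142), NCAPH at 110.4 CPM (others 84.2 to 90.4), SMC2 at 596 CPM (others 150.1 to 228) and SMC4 at 339 CPM (others 109.9 to 159). Of the other mitosis genes, only those that passed the main test were screened, and it was high for ESCO1 at 156 CPM (others 50.8 to 71.6). NIPBL, STAG2, PDS5B and CDCA5, named above, were not screened. It was low for PLK1 at 142 CPM (others 189 to 203), CDC20 at 169 CPM (others 267 to 277) and AURKB at 43.8 CPM (others 82.4 to 93.2).

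In siCtrl, replicate 2 was high for PTTG1 at 179 CPM (others 136 to 144) and BIRC5 at 238 CPM (others 186 to 197), and replicate 1 was high for WEE1 at 65.9 CPM (others 52.9 to 56.5).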

How the results depend on the processing

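None of the 41 genes was called higher under any of the 19 alternatives. Their median log2 fold change was -0.018 in the main fit and 0.011 with the length offset. It was -0.14 without siUSP9X replicate 2 and -0.15 with the offset and without that library. Under every alternative it stayed within 0.32, the SD of the library medians, of its main value, a band that is wide beside these medians. The number of the 41 called lower was 3 in the main fit and 6 with DESeq2, the same 3 and CCNB1, CDC20 and BIRC5. It was 6 with the length offset, 14 with the length offset and siUSP9X replicate 2 left out, and from 2 to 12 when 1 library was left out, the 12 without siUSP9X replicate 2. Of the other mitosis genes, the number higher was 2 in the main fit, 9 with DESeq2, 5 with the length offset, 12 with both, 1 without a filter and 0 to 10 when 1 library was left out. The number lower was 8 in the main fit, 14, 17, 30 and 5 under the same 4 alternatives, and 3 to 26 when 1 library was left out. With the replicate number as a block, 0 of the 41 genes were lower, and of the other mitosis genes 0 were higher and 2 lower. The numbers were not found to pair the libraries, since 1 of 5 same-numbered pairs correlated above 0.1 and 1 of 10 libraries correlated best with its own number. Other scalings moved the median of all genes by at most -0.025.

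Signs changed for 10 genes that did not pass the test in the main fit, and the cause was not tested. With the length offset, MKI67 was -0.16, CDK1 0.011 and NUSAP1 0.024. With the offset and siUSP9X replicate 2 left out, MKI67 was -0.35, TOP2A -0.17, NDC80 -0.021, TPX2 -0.15, HMMR -0.13 and ANLN -0.050. AURKA was -0.016 without a filter and -0.013 with upper-quartile factors. When 1 library was left out, log2 fold changes ran from -0.17 to 0.51 for MKI67, -0.094 to 0.46 for TOP2A, -0.019 to 0.023 for AURKA, -0.056 to 0.20 for NDC80, -0.20 to 0.049 for KIF4A, -0.14 to 0.20 for TPX2 and -0.14 to 0.30 for HMMR. In the simulated counts above, which hold no library like siUSP9X replicate 2, changes near 1.5-fold were often missed.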
